A study of Mus musculus with 6 samples.

Results

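The 10 genes described here encode 7 dual-specificity phosphatases (Dusp1, Dusp2, Dusp4, Dusp5, Dusp6, Dusp10 and Dusp16) and the 3 mRNA decay factors Zfp36, Zfp36l1 and Zfp36l2. They were chosen by name from the 23107 genes of the deposited count table, and all 10 were found and passed the filter on low counts. This choice, and that of the gene lists set beside them below, was made with earlier results of these data known. RNA was sequenced from myeloid cells carrying both CD11b and Gr-1 that were sorted out of gliomas in C57BL/6 mice. Of the 6 libraries, 3 came from tumours with mutant IDH1 (mIDH1) and 3 from tumours with wild-type IDH1 (wtIDH1), an enzyme gene whose mutant form makes 2-hydroxyglutarate in glioma. The age of the mice, other alleles of the tumours and whether a library came from 1 mouse or several are not given in the labels.

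Mitogen-activated protein (MAP) kinases, which are ERK, JNK and p38, carry signals from growth factor, cytokine and pathogen receptors, and DUSP phosphatases switch them off by removing phosphate from both a threonine and a tyrosine. Many DUSP genes are themselves induced by the kinases, so that the phosphatase acts as negative feedback. ZFP36, also called tristetraprolin, and its relatives bind AU-rich elements in the mRNAs of cytokines and other short-lived transcripts and bring in the CCR4-NOT deadenylase. Both families restrain inflammatory output in macrophages, and they are linked, because the p38-activated kinase MK2 phosphorylates ZFP36 and holds it inactive.

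None of the 10 genes passed the test between the genotypes. The test was edgeR's quasi-likelihood test with p-values adjusted over all 12950 genes tested, of which 1058 (8.17%) passed an adjusted p of 0.05, 5.39% as lower and 2.78% as higher in mIDH1. No member was called by DESeq2 either, where 12.4% of genes passed, and 4 of 10 members were at an unadjusted p under 0.05 in edgeR, where 22.2% of all genes were. In 9 of 10 members the values of the groups overlapped. They lay apart for Dusp5 alone, which was lower in mIDH1, whereas they lay apart for 28.9% of all genes, and with mIDH1 lower for 14.9%. The log2 fold change, mIDH1 over wtIDH1, was negative for 8 members, as for 46.6% of all genes, with a median of -0.23 over the members and 0.06 over all genes. The median size of the change was 0.23 in the members and 0.44 in all genes.

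Start-site sequences are shown for Dusp5, the member with the smallest p-value, and for Dusp1, the most abundant member. They end before the start of the gene both in RefSeq (GRCm38.p6) and in GENCODE M21, at chr19:53528995-53529108 on the plus strand for Dusp5 and at chr17:26508520-26508622 on the minus strand for Dusp1. Capitals mark matches to the CArG box, which serum response factor binds, and to the core TGACG of the cAMP response element (CRE) on either strand.
Dusp5: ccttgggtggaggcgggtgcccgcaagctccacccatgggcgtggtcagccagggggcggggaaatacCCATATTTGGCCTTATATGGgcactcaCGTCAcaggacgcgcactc
Dusp1: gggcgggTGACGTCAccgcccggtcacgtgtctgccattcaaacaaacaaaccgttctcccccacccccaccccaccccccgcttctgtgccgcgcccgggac

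RefSeq windows of 250 bases before to 50 bases after the start were found for 8 members. The CArG box occurred in 2 of these 8 and in 1.63% of 32851 windows of the same length. It occurred in 0 of 18 windows of immediate early genes, 1 window per gene. Boxes farther from the start were not searched for, so this does not show that these genes lack them. Dusp5 held a pair of adjacent CArG boxes that begin 82 and 72 bases before the RefSeq start, and Zfp36 held 1 that begins 58 bases before it. The RefSeq start of Zfp36 lies 1025 bases inside the GENCODE transcript, so that its match is upstream of the gene in RefSeq only. The full CRE, TGACGTCA, occurred in Dusp1 alone among the members, beginning 143 bases before the start, and in 1.79% of all windows. This match contains the core TGACG on both strands, and the core by itself occurred in 4 of 8 members and in 20.8% of all windows. It also occurred in 9 of the 18 windows of immediate early genes, so the core was not particular to the members. The AP-1 motif TGANTCA and the TATA box TATAAA each occurred in 1 member, Zfp36l1 in both cases, and in 7.81% and 13.6% of all windows. Of the 18 immediate early windows, 0 held the full CRE, 0 the AP-1 motif and 3 the TATA box. These matches describe letters in the windows and were not tested for binding.

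Among the nuclear phosphatases, Dusp1 (chr17:26505590-26508519, minus strand, principal transcript in GENCODE M21, build GRCm38), which acts on p38, JNK and ERK and limits cytokine production in macrophages, was high in every library. It was at 1422, 1563 and 1256 CPM, the count scaled to the size of its library with a TMM factor, in mIDH1, against 1389, 1927 and 1397 CPM in wtIDH1. Only wtIDH1 replicate 2 stood clearly above the others. The log2 fold change was -0.15 ± 0.18 (SE; adjusted p = 0.686), with a 95% interval of -0.54 to 0.24. Without wtIDH1 replicate 2 it was 0.01 (adjusted p = 0.982).

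Dusp5 (chr19:53529109-53542431, plus strand), a nuclear phosphatase that acts on ERK, gave the smallest p of the members. It was at 119, 158 and 80.5 CPM in mIDH1, against 162, 218 and 172 CPM in wtIDH1. Every mIDH1 library was below every wtIDH1 library, but mIDH1 replicate 2 and wtIDH1 replicate 1 were close together. The means were 119 ± 38.7 and 184 ± 29.9 CPM (SD, n = 3 each), and edgeR gave a log2 fold change of -0.63 ± 0.23 (SE), an unadjusted p of 0.0179 and an adjusted p of 0.122. The 95% interval of the log2 fold change reached from -1.13 to -0.13. Over 13 other settings its adjusted p lay between 0.0601 and 0.364. In the RefSeq sequence above, Dusp5 is the gene with the paired CArG boxes.

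Dusp2 (chr2:127336159-127338376, plus strand) and Dusp4 (chr8:34807297-34819894, plus strand), 2 further nuclear phosphatases induced on activation of leukocytes, varied more between libraries than between genotypes. Dusp2 was at 136, 79.4 and 74.4 CPM in mIDH1 and at 110, 104 and 72.2 CPM in wtIDH1 (log2 fold change 0.02, 95% interval -0.52 to 0.56, adjusted p = 0.976). Dusp4 was at 38.9, 56.7 and 28.7 CPM in mIDH1 and at 64.8, 25.8 and 37.0 CPM in wtIDH1 (log2 fold change -0.04, 95% interval -0.77 to 0.70, adjusted p = 0.966). Within wtIDH1 the coefficient of variation of Dusp4 was 47.2%, the highest of any member in either group.

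**Figure D1:**
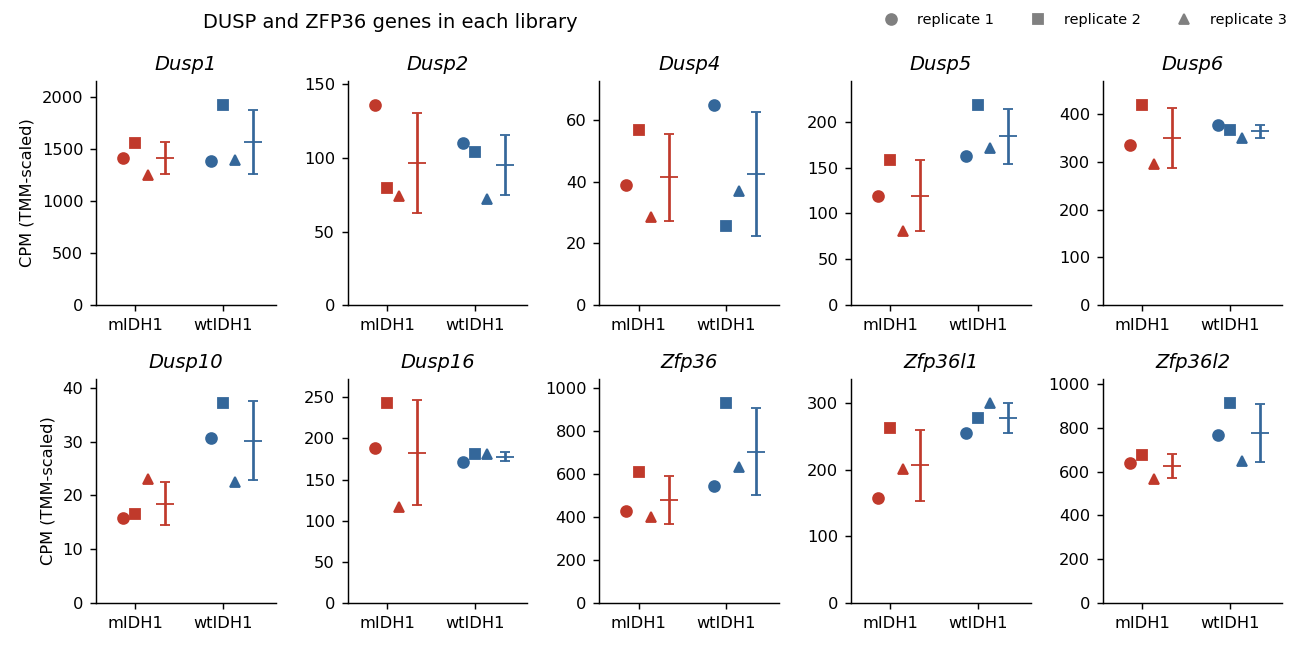
Level of each of the 10 genes in each library, in CPM scaled by TMM on a linear axis that starts at 0, with mIDH1 libraries on the left and wtIDH1 libraries on the right of each panel. Symbols are replicates, and the bar beside them is the mean ± SD (n = 3); the groups lie apart for Dusp5 only.

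Dusp6 (chr10:99263231-99267488, plus strand), the cytoplasmic phosphatase of ERK, had wtIDH1 libraries close together. It was at 335, 419 and 296 CPM in mIDH1, against 377, 366 and 349 CPM in wtIDH1, and the wtIDH1 values lay inside the mIDH1 range. Its log2 fold change was -0.06 (95% interval -0.43 to 0.32, adjusted p = 0.895).

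Dusp10 (chr1:184034381-184075636, plus strand) and Dusp16 (chr6:134715473-134792625, minus strand) are phosphatases of JNK and p38. Dusp10 was the least abundant member by CPM, at 15.8, 16.6 and 23.1 CPM in mIDH1 and at 30.8, 37.3 and 22.6 CPM in wtIDH1. Its groups overlapped in a single pair, mIDH1 replicate 3 and wtIDH1 replicate 3. Its log2 fold change, -0.71 ± 0.30 (SE), was the most negative of the members, with a 95% interval of -1.35 to -0.07 and an adjusted p of 0.174. Dusp16 was at 189, 243 and 116 CPM in mIDH1, against 171, 181 and 182 CPM in wtIDH1 (log2 fold change 0.04, 95% interval -0.46 to 0.53, adjusted p = 0.949). The mIDH1 libraries thus spread to both sides of the wtIDH1 libraries, with coefficients of variation of 34.96% in mIDH1 and 3.34% in wtIDH1, a difference that was not tested.

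Of the decay factors, Zfp36 (chr7:28376784-28380253, minus strand) was at 428, 606 and 397 CPM in mIDH1, against 545, 930 and 633 CPM in wtIDH1. The groups overlapped, because mIDH1 replicate 2 was above wtIDH1 replicate 1, and the remaining mIDH1 libraries were below every wtIDH1 library. The means were 477 ± 113 CPM in mIDH1 and 703 ± 202 CPM in wtIDH1 (SD, n = 3 each). EdgeR gave a log2 fold change of -0.56 ± 0.23 (SE), with a 95% interval of -1.05 to -0.07, an unadjusted p of 0.0282 and an adjusted p of 0.161. Over 13 other settings the adjusted p lay between 0.0879 and 0.532.

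Zfp36l1 (chr12:80107754-80113013, minus strand), which shares the CCCH zinc fingers of Zfp36, was at 157, 262 and 200 CPM in mIDH1 and at 255, 278 and 300 CPM in wtIDH1. Only mIDH1 replicate 2 reached into the wtIDH1 range. The log2 fold change was -0.43 ± 0.20 (SE; adjusted p = 0.218), and the 95% interval, -0.85 to -0.005, ended just under 0. Zfp36l2 (chr17:84183931-84187947, minus strand), the third relative, was at 640, 674 and 569 CPM in mIDH1, against 769, 916 and 647 CPM in wtIDH1, where mIDH1 replicate 2 was above wtIDH1 replicate 3. Its log2 fold change was -0.31 (95% interval -0.69 to 0.07, adjusted p = 0.332). All 3 decay factors kept a negative log2 fold change in all 13 other settings, and none of them passed in any.

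**Figure D2:**
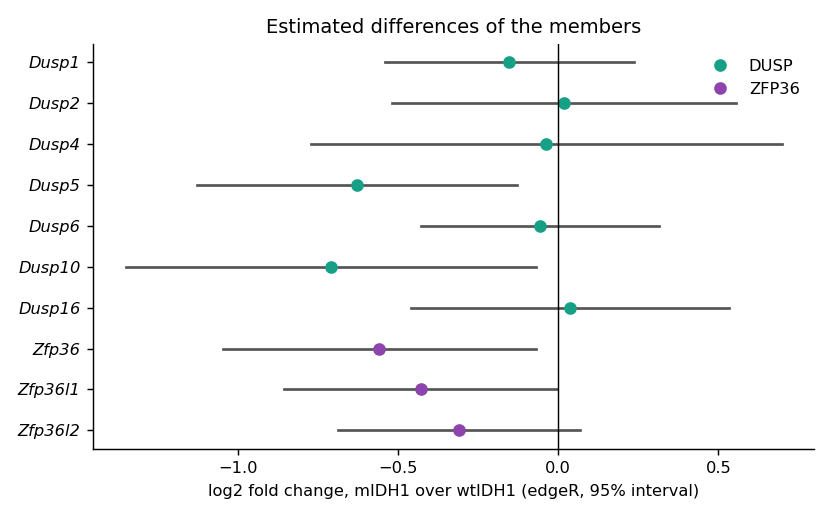
Log2 fold change of each member, mIDH1 over wtIDH1, from edgeR on a linear axis, with its 95% interval as a line and DUSP and ZFP36 genes in different colours. The intervals of Dusp5, Dusp10, Zfp36 and Zfp36l1 lie below 0 before adjustment over all genes, and those of Dusp5, Dusp10 and Zfp36 reach past -1.

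The intervals state what these libraries can show. For 7 members they stayed within a log2 fold change of 1 in size in both directions, and for Dusp5, Dusp10 and Zfp36 they reached beyond -1. The members were well covered, with at least 448 counts for each gene in each library and a median SE of 0.23 on the log2 scale, against 0.35 over all genes.

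To compare levels between genes, CPM was divided by the length of the principal transcript in kilobases. Dusp1 was first in every library, at a mean of 710 CPM per kb in mIDH1 and 789 CPM per kb in wtIDH1. Zfp36 and Zfp36l2 followed, in an order that depended on the annotated length of Zfp36. With the 2790 bases of the GENCODE transcript, Zfp36 was at 171 ± 40.4 CPM per kb in mIDH1 and 252 ± 72.3 CPM per kb in wtIDH1, Zfp36l2 was at 178 ± 15.3 and 220 ± 38.0 CPM per kb (SD, n = 3 each), and their order changed between libraries. With the 1765 bases of it that lie within the RefSeq gene, a length tried after seeing the data, Zfp36 was at 270 ± 63.9 CPM per kb in mIDH1 and 398 ± 114 CPM per kb in wtIDH1, above Zfp36l2 in all 6 libraries. Dusp6 came next in all 6 libraries, then Zfp36l1, Dusp2 and Dusp5 in changing order, then Dusp16 in all 6. The level of Dusp5 also depended on its length. It was at 48.2 CPM per kb in mIDH1 and 74.5 in wtIDH1 with the GENCODE length. With the RefSeq length it was at 65.6 and 101 CPM per kb. Dusp4, at means of 15.1 CPM per kb in mIDH1 and 15.5 CPM per kb in wtIDH1, and Dusp10, at 6.62 and 10.8 CPM per kb, were last.

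The makeup of each family was similar in scale between the genotypes. Of the summed level per length of the 7 phosphatases, Dusp1 made up 71.1 ± 2.17% in mIDH1 and 70.6 ± 3.23% in wtIDH1 (SD, n = 3 each). Dusp5 made up 3.80 to 5.69% in mIDH1 and 6.35 to 6.96% in wtIDH1, without overlap, and this difference in share was not tested. With the 1815 bases of Dusp5 within the RefSeq gene, its share was 6.21 ± 1.22% in mIDH1 and 8.72 ± 0.398% in wtIDH1 (SD). Of the 3 decay factors, Zfp36 made up 40.6 ± 2.82% in mIDH1 and 44.1 ± 4.73% in wtIDH1, Zfp36l1 16.4 ± 2.501% and 16.8 ± 3.06%, and Zfp36l2 43.0 ± 4.18% and 39.1 ± 4.06%. With the RefSeq length the share of Zfp36 was 51.9 ± 2.90% in mIDH1 and 55.4 ± 4.75% in wtIDH1.

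Within each genotype many members departed in the same direction from their group means in some libraries, which was not compared with all genes. In mIDH1 replicate 2, 8 of 10 members had their highest mIDH1 value, with a median departure of 0.32 on the log2 scale, and the exceptions were Dusp2 and Dusp10. In mIDH1 replicate 3, 8 of 10 had their lowest mIDH1 value, with a median departure of -0.23. In wtIDH1 replicate 2, 5 of 10 had their highest wtIDH1 value. There 9 of 10 lay above the wtIDH1 mean, with a median departure of 0.20, and Dusp4 was the exception. Among those above, Zfp36l1 (0.004), Dusp6 (0.009) and Dusp16 (0.03) were close to the mean. The summed level of 22 immediate early genes was likewise highest in mIDH1 replicate 2 among mIDH1 libraries, at 12336 CPM against 9280 and 8340 CPM, and in wtIDH1 replicate 2 among wtIDH1 libraries, at 19691 CPM against 15132 and 15152 CPM. The summed level of 12 macrophage markers was 16955 CPM in mIDH1 replicate 3, 9655 CPM in mIDH1 replicate 1 and 9868 CPM in mIDH1 replicate 2, and it lay between 6944 and 8100 CPM in wtIDH1. Apoe alone was at 6830 CPM in mIDH1 replicate 3, against 2171 and 2687 CPM in mIDH1 replicates 1 and 2. Among mIDH1 libraries, Cd68, Gpnmb and Fcgr1 were lowest in replicate 3, and the other markers were highest there. In RNA from sorted cells in bulk, fewer cells of a type and less RNA per cell cannot be told apart, and the part of the cell mixture in the members' values was not tested.

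**Figure D3:**
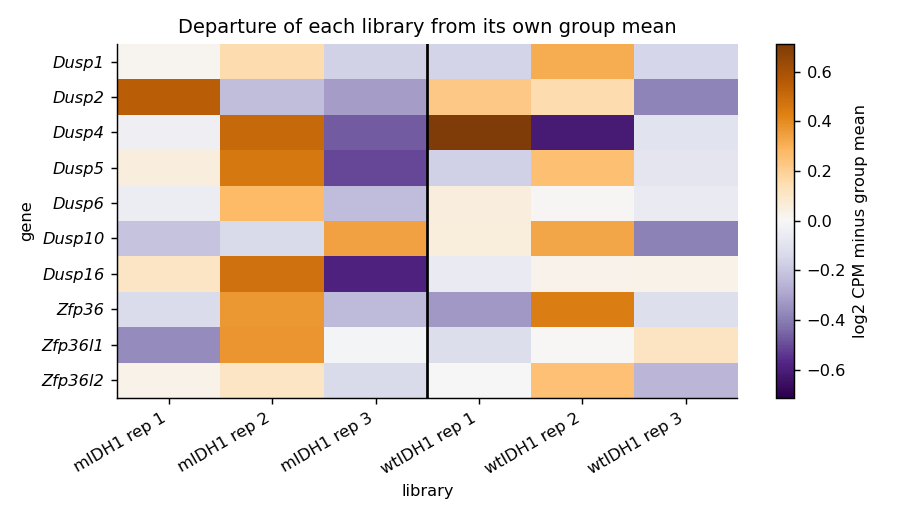
Departure of each library from the mean of its own genotype, in log2 CPM, for each member (rows), with mIDH1 libraries left of the black line and wtIDH1 libraries right of it. Orange is above and purple below the group mean; mIDH1 replicate 2 is above its group mean for 8 members and mIDH1 replicate 3 below it for 9.

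Likeness between genes was measured as the root mean square distance of log2 CPM, centred over the 6 libraries. A small value means that the centred values lay close together. The distance is not scaled by the spread of a gene, so genes that vary little come out close whatever their course. Of 45 pairs of members, Dusp1 and Zfp36l2 were closest (0.11), then Dusp1 and Dusp6 (0.17) and Dusp5 and Zfp36 (0.18). Dusp4 and Dusp10 were farthest apart (0.74). Among 9645 other genes with a mean of at least 5 CPM, those nearest to Dusp5 were Camkk2, Ccdc88a, Vps37c, Slc20a1 and Rgs3, at distances of 0.07 to 0.10, where the median over all these genes was 0.58. Nearest to Zfp36 were Whsc1l1, Csnk1e, Rnf217, Prdx6 and 4930420K17Rik, at distances of 0.10 to 0.13 and a median of 0.54. None of these 10 genes passed the test. Their choice by likeness to Dusp5 and Zfp36, which did not pass, made this outcome likely in advance.

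Other phosphatases of the family gave no calls either. Dusp7, which acts on ERK, was at 31.9, 23.3 and 39.4 CPM in mIDH1 and at 38.8, 32.9 and 31.4 CPM in wtIDH1 (adjusted p = 0.837). Dusp8, a phosphatase of JNK and p38, was scarce in every library, at 0.115, 1.95 and 0.285 CPM in mIDH1, against 8.41, 5.80 and 2.82 CPM in wtIDH1. Its groups lay apart, with a log2 fold change of -2.84 ± 1.08 (SE; adjusted p = 0.135), and it passed as lower by DESeq2 and in edgeR without mIDH1 replicate 2. None of 10 tested atypical dual-specificity phosphatases passed edgeR's test or DESeq2's. In edgeR 1, Dusp3, was at an unadjusted p under 0.05, beside 22.2% of all genes (148 ± 12.5 CPM in mIDH1 and 111 ± 9.85 CPM in wtIDH1; SD, n = 3 each; adjusted p = 0.151).

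Among 24 tested genes of the MAP kinase cascade, 2 fell in mIDH1 and none rose, with a median log2 fold change of -0.25. Over all genes, 5.39% were lower and 2.78% higher. Map2k7, a kinase that activates JNK, was at 73.7, 47.6 and 50.9 CPM in mIDH1, against 105, 95.1 and 102 CPM in wtIDH1 (log2 fold change -0.81 ± 0.20 SE, adjusted p = 0.0304). Map2k3, which activates p38, was at 64.0, 47.9 and 43.9 CPM in mIDH1, against 77.5, 94.6 and 96.3 CPM in wtIDH1 (log2 fold change -0.78 ± 0.20 SE, adjusted p = 0.0341). Neither passed when mIDH1 replicate 2 or 3 or any wtIDH1 library was left out. Map2k1, which activates ERK, was at 120 ± 17.2 CPM in mIDH1 and 181 ± 39.8 CPM in wtIDH1 (SD, n = 3 each; adjusted p = 0.0887).

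Of 12 genes that ERK induces or that feed back on it, 1 rose and none fell, with a median log2 fold change of -0.01. The shares of all genes were 2.78% higher and 5.39% lower. Spry4, a feedback inhibitor of receptor tyrosine kinase signalling, was at 2.27, 9.12 and 7.75 CPM in mIDH1, against 0.277, 0.152 and 0.202 CPM in wtIDH1, close to the floor of 3 counts (0.0861 to 0.151 CPM). Its log2 fold change was 4.90 ± 0.98 (SE; adjusted p = 0.00986), and it did not pass without mIDH1 replicate 2 or wtIDH1 replicate 2, or in limma voom, and a stricter filter on low counts left it untested. Egr1, a zinc finger factor induced by ERK, was at 325, 310 and 260 CPM in mIDH1 and at 249, 239 and 226 CPM in wtIDH1 (adjusted p = 0.262), so that its groups lay apart with mIDH1 higher and it did not pass.

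In the machinery that ZFP36 proteins recruit, none of 25 deadenylation and decapping genes passed in edgeR, beside 8.17% of all genes. At an unadjusted p under 0.05 in edgeR were 5 of them, beside 22.2% of all genes. DESeq2 called 1, Rqcd1 (higher), beside 12.4% of all genes. Rqcd1, the older symbol of the CCR4-NOT subunit gene Cnot9, was at 45.9 ± 1.24 CPM in mIDH1 and 28.8 ± 2.18 CPM in wtIDH1, and Cnot3, another subunit, at 49.7 ± 7.71 and 75.2 ± 3.96 CPM (SD, n = 3 each; edgeR adjusted p = 0.0823 for both). Of 14 other RNA-binding regulators of mRNA stability, Zc3h12a fell and none rose in edgeR, beside 5.39% of all genes lower and 2.78% higher. DESeq2 also called Igf2bp3 higher. Zc3h12a encodes Regnase-1, an endonuclease that degrades cytokine mRNAs, and it was at 80.9, 71.7 and 90.5 CPM in mIDH1, against 141, 162 and 112 CPM in wtIDH1 (log2 fold change -0.77 ± 0.19 SE, adjusted p = 0.0257). It did not pass without mIDH1 replicate 2, wtIDH1 replicate 1 or wtIDH1 replicate 2. Igf2bp3, which encodes an RNA-binding protein that stabilises bound mRNAs, was at 4.70, 20.5 and 17.4 CPM in mIDH1, against 2.36, 0.227 and 3.88 CPM in wtIDH1, so that its groups lay apart (log2 fold change 2.73 ± 0.83 SE, edgeR adjusted p = 0.0640). It also passed in edgeR with no filter on low counts and without mIDH1 replicate 1.

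Transcripts reported as ZFP36 targets in mouse or human cells were also examined. Of 18 tested, 8 fell in mIDH1 and none rose, beside 5.39% of all genes lower, with a median log2 fold change of -1.17. The list was chosen with earlier results of these data known, so this count describes it and is no test of it. Plk3, a stress-induced kinase gene, was at 115, 111 and 134 CPM in mIDH1, against 332, 403 and 388 CPM in wtIDH1 (log2 fold change -1.64 ± 0.17 SE, adjusted p = 0.000178), and Il1a, Vegfa and Ptgs2 had log2 fold changes of -1.71, -2.77 and -1.36. Outside the naming rule, and chosen after its values were seen, Tnf, the first known target of ZFP36, was at 168, 122 and 115 CPM in mIDH1, against 148, 170 and 153 CPM in wtIDH1 (adjusted p = 0.547). Between 6 and 9 targets fell when 1 library was left out. The difference between the targets and the members was not tested.

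Immediate early genes, many of which share induction by MAP kinases with Dusp1 and Zfp36, fell in 12 of 22 cases, beside 5.39% of all genes lower. None rose, and the median log2 fold change was -0.95. Outside the naming rule, the list also holds the heat shock genes Hspa1a and Hspa1b. Hspa1b, whose groups overlapped, was among the 12. This list was chosen with earlier results of these data known, so the count is a description and no test of the list. Nr4a2, an orphan nuclear receptor gene, was at 45.2, 47.0 and 26.0 CPM in mIDH1, against 259, 262 and 195 CPM in wtIDH1 (log2 fold change -2.60 ± 0.24 SE, adjusted p = 0.000113). Atf3, Maff and Fosb, all genes of basic leucine zipper factors, had log2 fold changes of -1.76, -1.39 and -1.16. Without wtIDH1 replicate 2 the count was 6. The summed level of the 22 genes was 8340 to 12336 CPM in mIDH1 and 15132 to 19691 CPM in wtIDH1. That of the 10 members was 3040 to 4078 CPM in mIDH1 and 3812 to 4983 CPM in wtIDH1, with overlap. Abundant genes weigh most in such sums. The difference between the immediate early genes and the members was not tested.

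**Figure D4:**
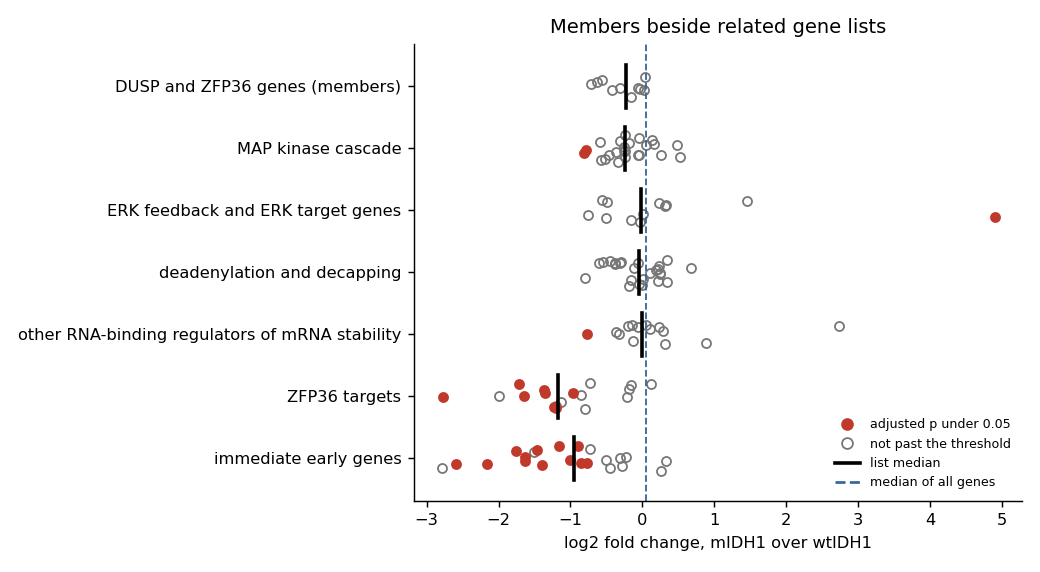
Log2 fold change, mIDH1 over wtIDH1, of the members and of genes in related lists on a linear axis, 1 point per gene tested with random vertical scatter. Filled points are past an adjusted p of 0.05, black bars are list medians and the dashed line is the median of all genes (0.06); no member is filled, against 8 of 18 ZFP36 targets and 12 of 22 immediate early genes.

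Over the whole table, 360 of the 1058 calls were higher and 698 lower in mIDH1, or 483 higher and 593 lower with scaling by library totals and no TMM factor, where no member passed either. Library totals were 19728204 to 35093267 counts in mIDH1 and 20502713 to 27750515 counts in wtIDH1. Itgam, the gene of CD11b, was at 1830 to 2222 CPM in mIDH1 and 1778 to 2056 CPM in wtIDH1, and Ly6c2, which encodes a Gr-1 antigen, at 33.7 to 54.3 and 120 to 214 CPM. Of 12 macrophage markers 6 rose, of 10 tested neutrophil markers 3 rose and 1 fell, and of 10 monocyte markers 1 rose and 2 fell. The calls over all genes were 2.78% higher and 5.39% lower. Summed levels were 448 to 510 CPM in mIDH1 and 337 to 417 CPM in wtIDH1 for neutrophil markers, and 5679 to 8550 and 6002 to 9976 CPM for monocyte markers. Fn1 was the largest part of the monocyte sum in every library, so the sum says little of the called monocyte markers. These were F13a1 (log2 fold change 1.78), Ly6c2 (-1.76) and Plac8 (-1.94). Of 7 microglia markers 1 rose (sums of 655 to 1269 CPM in mIDH1 and 631 to 944 CPM in wtIDH1), and none of 7 dendritic cell markers passed in edgeR or DESeq2, with none at an unadjusted p under 0.05 (52.2 to 112 and 92.3 to 112 CPM). Of 10 T and NK cell markers 1 rose, with sums of 365 to 708 CPM in mIDH1 and 273 to 462 CPM in wtIDH1. Which cells these transcripts came from was not tested. Sums were 5.43 to 12.02 and 2.72 to 4.55 CPM for B cell, 14.97 to 24.4 and 4.38 to 9.42 CPM for glioma and neural, and 62.7 to 99.98 and 95.8 to 131 CPM for endothelial and pericyte markers, among which Rgs5 had 0 counts in all 6 libraries. No B cell marker (of 4 tested) and no endothelial or pericyte marker (of 3) passed in edgeR or DESeq2. In edgeR 1 of each was at an unadjusted p under 0.05, beside 22.2% of all genes. Their part in the members' values was not tested.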

How the data were processed

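The members and gene lists were chosen with earlier results of these data known. Per the labels' protocols, polyadenylated RNA was made into libraries with a TruSeq mRNA kit, which does not mark strand, so that reads from members and overlapping antisense genes cannot be told apart. An antisense or opposite-strand gene overlaps exons of 5 members (Dusp1, Dusp5, Zfp36, Zfp36l1 and Zfp36l2) in GENCODE M21. The authors deposited estimated counts per gene. These were on the scale of reads, without library scaling. The tools named, per the submitters' processing notes, are TopHat2 2.0.13, Bowtie2 2.2.1, Cufflinks, Cuffdiff 2.1.1, HTSeq and FastQC, with build mm10. Counting settings and annotation: not given in the sources used here. Values that were not whole to within 1e-09 made up 1.31 to 1.61% of each library, and all values were rounded.

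Genes were filtered with filterByExpr (minimum count 10, minimum total 15), scaled by TMM and compared with edgeR 4.0.16 (glmQLFit, glmQLFTest, group as the only term, all 6 libraries) in R 4.3.3. P-values are two-sided, with Benjamini-Hochberg adjustment over all genes tested and a threshold of 0.05, and the 95% intervals use the same test's degrees of freedom, without adjustment for the number of genes. The scripts were tested on simulated data. Alternatives were other scalings and filters, DESeq2 1.42.0, limma 3.58.1 voom, a replicate block and leaving out each library. The text names all 10 members, up to 4 genes of each other list of the pathway with the smallest p, and the 5 genes nearest to the DUSP and the ZFP36 gene with the smallest p. 1 gene that this rule names is not reported here. Of the cell type marker lists, counts and sums are given. Lengths are those of GENCODE M21 principal transcripts (GRCm38), with their exons inside the RefSeq gene as an alternative added after seeing the data, and motifs were searched on both strands of RefSeq start-site windows. The labels do not say that replicates came from separate mice, so p-values measure the spread between libraries, possibly a technical one. Floors of 3 counts cover counting error only.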

Additional observations from a re-analysis of the deposited data

How the results depend on the processing

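No member passed the threshold in any of 13 other settings, and Dusp5, Dusp10, Zfp36, Zfp36l1 and Zfp36l2 had a negative log2 fold change in all of them. The smallest adjusted p of any member was 0.0601, for Dusp5. The sign of the other 5 members, none of which was called, depended on the setting. With 1 library left out, Dusp1 ranged from -0.239 to 0.0124 (positive without wtIDH1 replicate 2), Dusp2 from -0.313 to 0.175 (negative without mIDH1 replicate 1 or wtIDH1 replicate 3), Dusp4 from -0.329 to 0.397 (positive without mIDH1 replicate 1 or 3 or wtIDH1 replicate 1), Dusp6 from -0.206 to 0.0524 (positive without mIDH1 replicate 3) and Dusp16 from -0.22 to 0.279 (negative without mIDH1 replicate 2). With library totals and no TMM factor, Dusp4 was at 0.0192 and Dusp6 at 0.0151. In limma voom, Dusp2 was at -0.000857, Dusp4 at 0.0857 and Dusp16 at -0.0069, and with the replicate block Dusp2 was at -0.0136 and Dusp16 at -0.0244. The cause was not tested.

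The count of all genes past the threshold, 1058, was 1610 by DESeq2 and 585 with the replicate block, and 334 to 1033 with 1 library left out (558 without mIDH1 replicate 2, and 665, 334 and 364 without wtIDH1 replicate 1, 2 and 3). The labels do not say that the replicate numbers pair the libraries. Over all genes tested, same-numbered libraries did not deviate together (correlations of -0.03, 0.03 and -0.05 for replicates 1, 2 and 3). With so few libraries this cannot show whether they were collected or processed as pairs. The block called 0 members and neither Map2k3 nor Zc3h12a. With 1 library left out, calls ranged from 0 to 2 in the MAP kinase list, 0 to 1 in the ERK list, 0 to 2 among other RNA-binding regulators, 6 to 14 among immediate early genes, 2 to 5 for neutrophil, 2 to 7 for monocyte, 1 to 10 for macrophage, 0 to 2 for microglia and 0 to 3 for T and NK cell markers. Of 4 tested glioma and neural markers 1 rose, with 0 to 3 calls in other settings. Each member had 448 counts or more in every library.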
